A study of Mus musculus with 16 samples.

Results

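The macrophage and monocyte genes described here are 37 genes that mark phagocytes of the myeloid line, measured in mouse B cell lymphomas with and without an intact Wrn helicase. They were taken from a fixed list of symbols, which was chosen with earlier results of these data known. The list holds complement C1q and Fc receptor genes, lineage surface genes, lysosomal genes, scavenger and lipid genes, and heme and iron genes. Of the 37 genes, 34 had at least 1 of the 25697 probes of the array, with 46 probes in all. The expression of Csf1r, Cd68 and Mpeg1 was not analysed here. A probe was tested where its detection p-value was under 0.01 on at least 4 of the 8 arrays, which left 11024 probes of 7665 of the 16590 named genes, and 33 probes of 28 of the listed genes.

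The study compared lymphomas of Eµ-Myc Wrn Δhel/Δhel mice with lymphomas of Eµ-Myc mice, 4 tumours of each, all on the C57B6 strain. Every tumour carries the Eµ-Myc transgene, in which the immunoglobulin heavy chain enhancer drives Myc in B lymphoid cells, and the Wrn Δhel/Δhel tumours carry in addition a deletion in the helicase part of Wrn on both alleles. The labels give no age, and they do not say whether the tumours of a group came from separate mice, so the p-values measure the spread between these 8 tumours. The titles also carry a letter, L or E, whose meaning the labels do not give. Wrn Δhel/Δhel tumours 1 and 3 and Eµ-Myc tumours 2 and 4 are titled L. Wrn Δhel/Δhel tumours 2 and 4 and Eµ-Myc tumours 1 and 3 are titled E.

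Macrophages live in every lymphoid organ and take up dying cells, antibody-coated particles and spent red blood cells. In Eµ-Myc lymphomas, which shed many apoptotic cells, macrophages that engulf them are a well-known part of the tumour tissue. The RNA was taken from whole tumours, so that fewer phagocytes and less of an RNA per phagocyte cannot be told apart in these data. Several of the genes, among them Ctsb, Ctsd and Ctss, are also used by other cells.

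On the arrays 41.3% to 44.2% of probes were detected, and tumours correlated at 0.945 to 0.984 over the tested probes. Array weights estimated by limma, which are lower for arrays whose probes lie further from their group, ran from 0.615 in Eµ-Myc tumour 4 to 2.14 in Wrn Δhel/Δhel tumour 2. Signals are given on a log2 scale after background correction with an offset of 16, so that a probe with no signal lies near 4 and differences of dim probes are understated. As a check of the labels, the Wrn probe that was detected had 7.03, 7.48, 7.33 and 7.46 in Wrn Δhel/Δhel tumours 1 to 4, against 8.06, 8.45, 8.21 and 7.56 in Eµ-Myc tumours 1 to 4. All 4 Wrn Δhel/Δhel tumours lay below all 4 Eµ-Myc tumours for this probe, by 0.75 ± 0.22 on average (SE), with a limma adjusted p of 0.973. The sources used here do not place the probe relative to the deletion.

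The listed genes fit their label in part. Of the 28 tested genes, 24 were detected on all 8 arrays, including Adgre1 (F4/80, the classical mouse macrophage antigen), the C1q chains, Tyrobp and Mrc1. Itgam and Itgax (integrin chains of monocytes, macrophages and dendritic cells), Ctsl (a lysosomal protease), Cybb (the membrane subunit of the phagocyte oxidase), Timd4 (a receptor for phosphatidylserine on dying cells) and Cd5l (a secreted protein of tissue macrophages) had a probe that was detected on no array, with no signal above 4.72. Each of these genes had only 1 probe, so a failed probe and a silent gene cannot be told apart. Lyz2, Aif1, Ms4a7, Cd163 and Gpnmb, detected by other probes, each also had a probe that was detected on no array. At the limit of the filter, Fcgr1 was detected in 1 Wrn Δhel/Δhel and 3 Eµ-Myc tumours and Marco in 2 of each. Ctsd was detected in 2 Wrn Δhel/Δhel and 3 Eµ-Myc tumours, and Cd163 in 3 Wrn Δhel/Δhel and all 4 Eµ-Myc tumours. No listed gene had a probe detected on only 1 to 3 arrays as its best.

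Sequences upstream of the members were searched because many phagocyte genes are known targets of the factor PU.1, encoded by Spi1. RefSeq promoter windows (build GRCm38.p6, 250 bases before to 50 after the start of the gene) were at hand for 28 of the 37 genes. The letters GAGGAAG, a PU.1 type motif, were found on either strand in 10 of these 28 genes (35.7%), against 15.4% of 27025 genes in the table. The 28 genes with a window are not the 28 tested genes. Itgam and Cd5l, among the 10 with this motif, were detected on no array, and the tested genes C1qa and Adgre1 had no window. TCACGTG, an E-box found in lysosomal gene promoters, was found in 2 of the 28 genes with a window (7.14%), Ctsd and Lgmn, against 4.29% of all genes. The windows of 2 genes of the C1q and Fc receptor group and of 1 lysosomal gene are shown 5′ to 3′ on the strand of the gene, with the motif match in capitals; in Fcgr3 and C1qc the match is to the reverse complement of the motif.
Fcgr3, chr1:171059345-171059644, minus strand: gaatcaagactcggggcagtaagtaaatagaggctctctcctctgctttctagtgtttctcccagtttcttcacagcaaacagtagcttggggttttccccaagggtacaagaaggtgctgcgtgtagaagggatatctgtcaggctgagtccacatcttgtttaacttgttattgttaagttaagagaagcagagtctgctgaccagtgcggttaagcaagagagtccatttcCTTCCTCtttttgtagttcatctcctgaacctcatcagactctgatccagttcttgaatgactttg
C1qc, chr4:136892865-136893164, minus strand: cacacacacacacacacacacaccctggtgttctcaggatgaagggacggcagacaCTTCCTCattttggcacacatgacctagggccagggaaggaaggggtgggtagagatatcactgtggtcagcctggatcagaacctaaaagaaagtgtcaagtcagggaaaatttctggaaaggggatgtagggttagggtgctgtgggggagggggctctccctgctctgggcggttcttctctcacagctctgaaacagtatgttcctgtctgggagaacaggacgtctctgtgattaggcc
Lgmn, chr12:102439043-102439342, minus strand: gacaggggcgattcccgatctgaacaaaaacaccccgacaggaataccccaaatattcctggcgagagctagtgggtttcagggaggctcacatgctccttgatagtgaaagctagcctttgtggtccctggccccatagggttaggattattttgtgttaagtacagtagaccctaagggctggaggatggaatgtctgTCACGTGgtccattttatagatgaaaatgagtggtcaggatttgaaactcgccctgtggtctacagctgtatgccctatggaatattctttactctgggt
The match in Fcgr3 lies close to the start of transcription and that in C1qc further upstream. A match describes the letters of these windows and is not evidence of binding.

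The first comparison, of the genotypes, asks how the loss of the Wrn helicase part changed expression in the lymphomas. No member passed the test (limma adjusted p from 0.973 to 0.987), while 4 of all 11024 probes did (0.0363%), with 2 of the 7665 genes by their reported probe (0.0261%), and 415 probes had an unadjusted p under 0.05. The mean was lower in the Wrn Δhel/Δhel tumours for 27 of the 28 members (96.4%), against 48.9% of all tested genes. The median difference of the members, Wrn Δhel/Δhel minus Eµ-Myc, was -0.46, a ratio of 0.729, against 0.0069 for all tested genes. With the array weights it was -0.30. Leaving out each tumour in turn gave 26 to 28 members with the lower mean in Wrn Δhel/Δhel tumours and medians of -0.56 to -0.33. The tested members share their tumours, so these 28 values are not 28 separate observations.

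Unadjusted p-values under 0.05 with a lower mean in Wrn Δhel/Δhel tumours were found for 6 of the 28 members (21.4%), against 1.75% of all tested genes. These were C1qc, Fcer1g, Fcgr3, Tyrobp, Ms4a7 and Mertk. No member was higher in Wrn Δhel/Δhel tumours at that level, against 2.1% of all tested genes. None of the 28 members had all 4 Wrn Δhel/Δhel tumours below all 4 Eµ-Myc tumours, against 0.822% of all tested genes, and none had them all above, against 1.28%. Where a gene had a further tested probe, which was so for 5 probes, that probe had the same sign as the one reported.

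**Figure D1:**
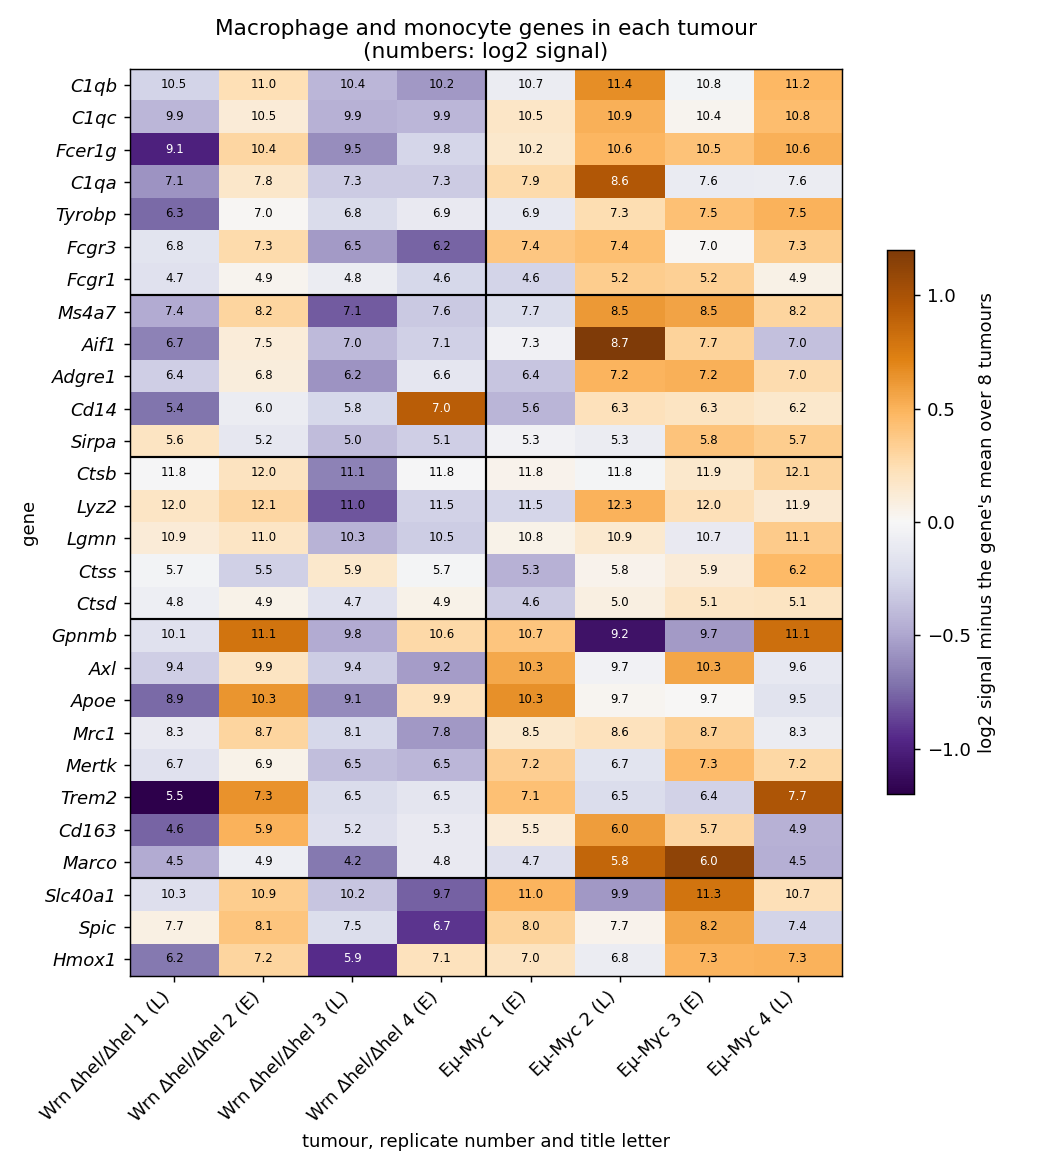
Signal of each of the 28 tested members (rows, ordered by role) in the 8 tumours (columns, Wrn Δhel/Δhel to the left and Eµ-Myc to the right), as the log2 deviation from the gene's mean over all tumours. Wrn Δhel/Δhel tumours 1 and 3 are low for most rows, with median deviations of -0.29 and -0.40, and Wrn Δhel/Δhel tumour 2 is high for most, with 0.20.

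The tumours of one genotype were not alike. The median deviation of the 28 members from their own means was -0.29, 0.20, -0.40 and -0.27 in Wrn Δhel/Δhel tumours 1 to 4, against 0.089, 0.22, 0.30 and 0.27 in Eµ-Myc tumours 1 to 4. Wrn Δhel/Δhel tumour 2 thus lay within the Eµ-Myc range, with 24 of 28 members above their mean, and the other Wrn Δhel/Δhel tumours lay below it. Over all tested genes the median deviation of a tumour ran from -0.017 to 0.009. The share of all tested genes above their mean in Wrn Δhel/Δhel tumour 2 was not counted. The highest value was in an Eµ-Myc tumour for 27 of 28 members, against 53.6% of all tested genes; the exception was Cd14. The lowest value was in a Wrn Δhel/Δhel tumour for 24 members, against 44.5% of all tested genes, and in Wrn Δhel/Δhel tumour 1 or 3 for 17, against 25.9%. The median genotype difference of the members was -0.42, -0.56, -0.34 and -0.38 without Wrn Δhel/Δhel tumour 1, 2, 3 or 4, and -0.39, -0.37, -0.33 and -0.44 without Eµ-Myc tumour 1, 2, 3 or 4. For 18 of the 28 members leaving out 1 tumour moved the difference by over 1.5 times or turned its sign. The 6 with an unadjusted p under 0.05 were not among them. These 6 were picked by their p over the same tumours, which favours this, so it is no separate support. The share of all tested genes moved in this way was not counted.

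All 7 C1q and Fc receptor genes were tested and had the lower mean in Wrn Δhel/Δhel tumours, against 48.9% of all tested genes. Their median difference was -0.53. An unadjusted p under 0.05 was found for 4 of them, against 1.75% of all tested genes in that direction. C1qa, C1qb and C1qc encode the chains of C1q, the first component of the classical complement pathway, which tissue macrophages make. C1qc had 9.93, 10.46, 9.90 and 9.93 in Wrn Δhel/Δhel tumours 1 to 4, against 10.52, 10.86, 10.38 and 10.79 in Eµ-Myc tumours 1 to 4. Of the Wrn Δhel/Δhel tumours, only tumour 2 reached the Eµ-Myc range, and the difference was -0.58 ± 0.20 (SE), with an unadjusted limma p of 0.0135 and an adjusted p of 0.973. C1qb had 10.51, 11.02, 10.36 and 10.22 in Wrn Δhel/Δhel tumours, against 10.69, 11.44, 10.75 and 11.25 in Eµ-Myc tumours, again with only Wrn Δhel/Δhel tumour 2 inside the Eµ-Myc range (difference -0.51 ± 0.24). C1qa differed by -0.52 ± 0.26, and was highest, at 8.63, in Eµ-Myc tumour 2, without which the difference was -0.29.

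Fcer1g encodes the signalling chain shared by activating Fc receptors and Tyrobp encodes DAP12, a related adaptor of receptors such as Trem2. Fcer1g had 9.07, 10.36, 9.46 and 9.81 in Wrn Δhel/Δhel tumours 1 to 4, against 10.22, 10.55, 10.48 and 10.58 in Eµ-Myc tumours 1 to 4. Fcer1g averaged 9.68 ± 0.55 in Wrn Δhel/Δhel tumours and 10.46 ± 0.17 in Eµ-Myc tumours (SD, n = 4 each), a difference of -0.78 ± 0.26 (SE), or a ratio of 0.582, with an unadjusted limma p of 0.0123. The Eµ-Myc tumours lay close together for Fcer1g, and the Wrn Δhel/Δhel tumours spread over a wider range that met it only in tumour 2. Tyrobp had 6.27, 7.03, 6.80 and 6.91 in Wrn Δhel/Δhel tumours, against 6.90, 7.27, 7.45 and 7.52 in Eµ-Myc tumours, a difference of -0.53 ± 0.22. Here Wrn Δhel/Δhel tumours 2 and 4 exceeded the lowest Eµ-Myc tumour, which was tumour 1.

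Fcgr3, a receptor that binds IgG complexes and signals through Fcer1g, whose upstream window is shown above, had 6.85, 7.27, 6.45 and 6.24 in Wrn Δhel/Δhel tumours, against 7.39, 7.44, 7.01 and 7.35 in Eµ-Myc tumours. The difference was -0.60 ± 0.24, a ratio of 0.662, and Wrn Δhel/Δhel tumour 2 alone overlapped the Eµ-Myc tumours. Fcgr1, the high-affinity IgG receptor, was close to background in all tumours, with a difference of -0.24 ± 0.19, and of -0.37 without Eµ-Myc tumour 1.

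**Figure D2:**
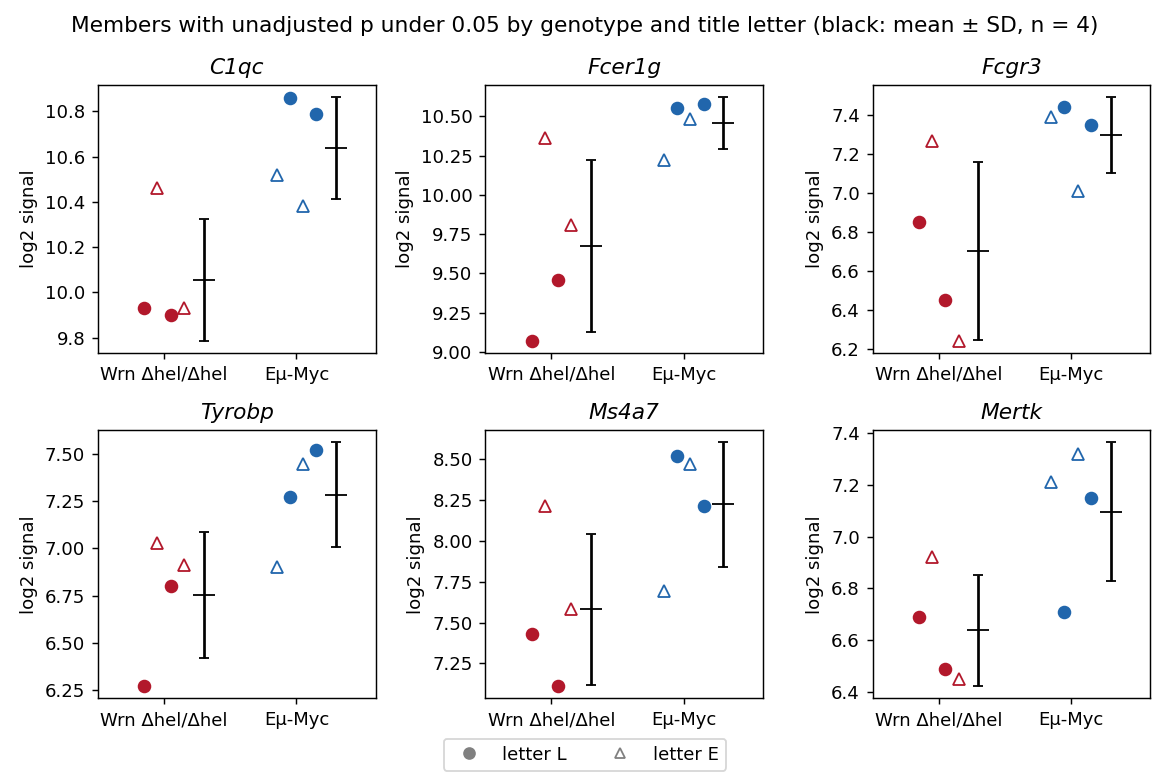
Log2 signal (vertical axis) of the 6 members with an unadjusted p under 0.05, C1qc, Fcer1g, Fcgr3, Tyrobp, Ms4a7 and Mertk, in each Wrn Δhel/Δhel tumour (left in each panel) and each Eµ-Myc tumour (right), with the mean and SD of 4 tumours; filled points are L and open points E tumours, and each panel has its own axis, which does not start at 0. For C1qc the means are 10.06 and 10.64, and in all panels the highest Wrn Δhel/Δhel tumour is tumour 2 and overlaps the Eµ-Myc tumours.

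Of the lineage surface genes 5 of 9 were tested, and all 5 had the lower mean in Wrn Δhel/Δhel tumours, with a median difference of -0.46. Ms4a7, a membrane protein of macrophages, had 7.43, 8.21, 7.11 and 7.58 in Wrn Δhel/Δhel tumours 1 to 4, against 7.69, 8.52, 8.47 and 8.21 in Eµ-Myc tumours 1 to 4, a difference of -0.64 ± 0.27. Adgre1 had 6.44, 6.84, 6.16 and 6.60 in Wrn Δhel/Δhel tumours, against 6.40, 7.23, 7.25 and 7.00 in Eµ-Myc tumours, where tumour 1 lay among the Wrn Δhel/Δhel tumours (difference -0.46 ± 0.23). Its second tested probe differed by -0.34 ± 0.23. Aif1 (Iba1, an actin-bundling protein of macrophages and microglia) differed by -0.62 ± 0.34, and 1 tumour, Eµ-Myc tumour 2 at 8.71, stood far above the other 7, which lay between 6.72 and 7.68. Without that tumour the Aif1 difference was -0.27.

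Sirpa, the receptor through which CD47 restrains phagocytosis, differed by -0.31 ± 0.20. Cd14, a co-receptor for bacterial lipopolysaccharide, differed by -0.06 ± 0.32 and had the one highest value found in a Wrn Δhel/Δhel tumour. It had 5.36, 5.98, 5.82 and 6.99 in Wrn Δhel/Δhel tumours, against 5.64, 6.29, 6.26 and 6.23 in Eµ-Myc tumours. Wrn Δhel/Δhel tumours 1 and 4 were thus the lowest and the highest of the 8, and the sign of the mean difference turned when Wrn Δhel/Δhel tumour 1 (0.16) or 3 (0.0086) was left out.

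Of the genes for lysosomal and protease functions 5 of 8 were tested, and all 5 had the lower mean in Wrn Δhel/Δhel tumours, with a median difference of -0.225 and no unadjusted p under 0.05. That median was -0.093 without Wrn Δhel/Δhel tumour 3, -0.14 without Eµ-Myc tumour 4 and -0.145 with the array weights. Lyz2 encodes lysozyme, which cuts bacterial cell walls and is a standard marker of myeloid cells. It had 11.96, 12.07, 10.97 and 11.50 in Wrn Δhel/Δhel tumours 1 to 4, against 11.52, 12.28, 12.01 and 11.91 in Eµ-Myc tumours 1 to 4. The groups overlapped, with 1 low value in Wrn Δhel/Δhel tumour 3, and the difference was -0.31 ± 0.27, or -0.09 without that tumour. Its second tested probe differed by -0.44 ± 0.32.

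The lysosomal proteases overlapped between the genotypes. Ctsb (cathepsin B) had 11.77, 11.99, 11.13 and 11.77 in Wrn Δhel/Δhel tumours, against 11.83, 11.76, 11.94 and 12.09 in Eµ-Myc tumours, a difference of -0.24 ± 0.21. Lgmn (legumain, an asparaginyl endopeptidase) had 10.89, 10.96, 10.34 and 10.47 in Wrn Δhel/Δhel tumours, against 10.83, 10.92, 10.67 and 11.14 in Eµ-Myc tumours, a difference of -0.23 ± 0.20. In both, Wrn Δhel/Δhel tumour 3 was the lowest of the 8 and the other Wrn Δhel/Δhel tumours lay partly within the Eµ-Myc range. Without Wrn Δhel/Δhel tumour 3 the differences were -0.06 for Ctsb and -0.12 for Lgmn. Ctss (cathepsin S, which trims the invariant chain for antigen presentation) differed by -0.09 ± 0.21 and Ctsd (the aspartic protease cathepsin D) by -0.07 ± 0.18, and leaving out Eµ-Myc tumour 4 turned the sign for Ctss (0.053) and gave -0.02 for Ctsd, while leaving out Eµ-Myc tumour 1 gave -0.25 for Ctss and -0.19 for Ctsd.

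Of the scavenger, lipid and dead cell uptake genes 8 of 10 were tested and 7 of the 8 had the lower mean in Wrn Δhel/Δhel tumours, with a median difference of -0.38, which was -0.23 without Wrn Δhel/Δhel tumour 1 and -0.25 with the array weights. Axl and Mertk are receptor kinases that bind dying cells through bridging ligands. Mertk had 6.69, 6.92, 6.49 and 6.45 in Wrn Δhel/Δhel tumours 1 to 4, against 7.21, 6.71, 7.32 and 7.15 in Eµ-Myc tumours 1 to 4, a difference of -0.46 ± 0.19 with an unadjusted limma p of 0.0379. Axl had 9.44, 9.93, 9.43 and 9.20 in Wrn Δhel/Δhel tumours, against 10.29, 9.70, 10.30 and 9.62 in Eµ-Myc tumours, a difference of -0.48 ± 0.23. Both kinases were lowest in Wrn Δhel/Δhel tumour 4 and highest in Eµ-Myc tumour 3, and in both Wrn Δhel/Δhel tumour 2 exceeded Eµ-Myc tumour 2.

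Mrc1, Cd163 and Marco are scavenger receptors, for mannose-rich glycans, haemoglobin bound to haptoglobin, and a wide set of particles. Mrc1 had 8.28, 8.69, 8.14 and 7.83 in Wrn Δhel/Δhel tumours, against 8.54, 8.60, 8.72 and 8.30 in Eµ-Myc tumours, a difference of -0.31 ± 0.21, or -0.17 without Wrn Δhel/Δhel tumour 4. Cd163 differed by -0.28 ± 0.29, by -0.08 without Wrn Δhel/Δhel tumour 1 and by -0.50 without Wrn Δhel/Δhel tumour 2. Marco differed by -0.67 ± 0.35; it was at 5.81 and 6.05 in Eµ-Myc tumours 2 and 3 and no higher than 4.86 in the other 6, and the difference was -0.41 without Eµ-Myc tumour 3.

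Apoe, Trem2 and Gpnmb are genes of lipid-laden macrophages: Apoe carries lipids out of cells, Trem2 senses lipids and signals through Tyrobp, and Gpnmb is a glycoprotein induced under lysosomal load. Gpnmb, the only member with a higher mean in Wrn Δhel/Δhel tumours, had 10.10, 11.07, 9.80 and 10.55 in Wrn Δhel/Δhel tumours, against 10.67, 9.19, 9.73 and 11.10 in Eµ-Myc tumours. The difference was 0.21 ± 0.41, and it was -0.02 without Wrn Δhel/Δhel tumour 2, -0.12 without Eµ-Myc tumour 2, the lowest of the 8, and 0.52 without Eµ-Myc tumour 4. Apoe had 8.92, 10.30, 9.05 and 9.88 in Wrn Δhel/Δhel tumours, against 10.32, 9.69, 9.67 and 9.50 in Eµ-Myc tumours, a difference of -0.26 ± 0.32. Trem2 had 5.50, 7.33, 6.47 and 6.55 in Wrn Δhel/Δhel tumours, against 7.12, 6.48, 6.41 and 7.67 in Eµ-Myc tumours, a difference of -0.46 ± 0.39. Without Wrn Δhel/Δhel tumour 1 the differences were -0.05 for Apoe and -0.14 for Trem2, and without Wrn Δhel/Δhel tumour 2 they were -0.51 for Apoe and -0.75 for Trem2. All 3 genes were high in Wrn Δhel/Δhel tumour 2 and Eµ-Myc tumour 1, and Gpnmb and Trem2 also in Eµ-Myc tumour 4.

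All 3 heme and iron genes were tested and had the lower mean in Wrn Δhel/Δhel tumours, with a median difference of -0.48, which was -0.30 without Wrn Δhel/Δhel tumour 4 and -0.29 without Eµ-Myc tumour 3. Slc40a1 encodes ferroportin, the iron exporter, and Spic a transcription factor of the macrophages that recycle red cell iron. Slc40a1 had 10.32, 10.86, 10.17 and 9.74 in Wrn Δhel/Δhel tumours 1 to 4, against 11.00, 9.95, 11.30 and 10.74 in Eµ-Myc tumours 1 to 4, a difference of -0.48 ± 0.31. Spic had 7.73, 8.06, 7.46 and 6.74 in Wrn Δhel/Δhel tumours, against 7.97, 7.70, 8.21 and 7.39 in Eµ-Myc tumours, a difference of -0.32 ± 0.29. Its second tested probe differed by -0.10 ± 0.24. Without Wrn Δhel/Δhel tumour 4 Spic differed by -0.07, without Wrn Δhel/Δhel tumour 2 by -0.51, and Slc40a1 differed by -0.74 without Eµ-Myc tumour 2 and by -0.29 without Eµ-Myc tumour 3. Like Axl and Mertk, both were lowest in Wrn Δhel/Δhel tumour 4 and highest in Eµ-Myc tumour 3. Hmox1, heme oxygenase 1, which breaks down heme, had 6.16, 7.15, 5.90 and 7.06 in Wrn Δhel/Δhel tumours, against 7.05, 6.76, 7.34 and 7.35 in Eµ-Myc tumours, a difference of -0.56 ± 0.30, or -0.34 without Wrn Δhel/Δhel tumour 3. Its 2 low values were those of the Wrn Δhel/Δhel tumours titled L.

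**Figure D3:**
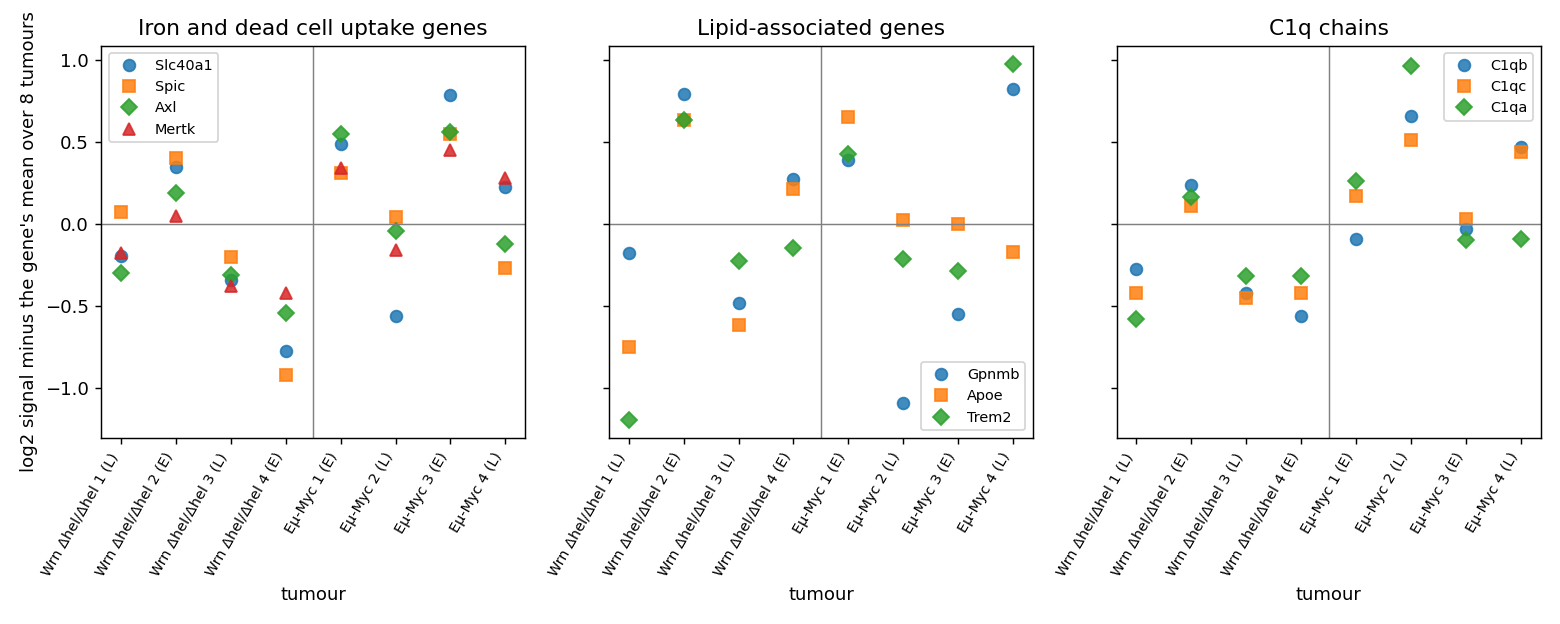
Log2 signal of single members minus the gene's own mean over the 8 tumours (vertical axis) in each tumour, Wrn Δhel/Δhel to the left and Eµ-Myc to the right, for 3 sets of genes picked after their values were seen. Slc40a1, Spic, Axl and Mertk are lowest in Wrn Δhel/Δhel tumour 4 and highest in Eµ-Myc tumour 3 (Axl at 10.30, close to 10.29 in Eµ-Myc tumour 1), Gpnmb, Apoe and Trem2 are above their means in Wrn Δhel/Δhel tumour 2 and Eµ-Myc tumour 1, and the C1q chains are highest in Eµ-Myc tumour 2.

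Within each title letter the genotypes could be set against each other in 2 tumours of each. In the L tumours these were Wrn Δhel/Δhel tumours 1 and 3 against Eµ-Myc tumours 2 and 4. In the E tumours they were Wrn Δhel/Δhel tumours 2 and 4 against Eµ-Myc tumours 1 and 3. Within a letter, genotype thus cannot be told apart from odd or even replicate number. Among the L tumours the mean was lower in Wrn Δhel/Δhel for 27 of 28 members (96.4%), against 50.2% of all tested genes, with a median difference of -0.62, a ratio of 0.649. Both Wrn Δhel/Δhel tumours lay below both Eµ-Myc tumours for 20 of the 28 (71.4%), against 18.9% of all tested genes, and this held for all 7 C1q and Fc receptor genes. Among the E tumours the mean was lower in Wrn Δhel/Δhel for 21 of 28 members (75%), against 48.3% of all tested genes, with a median difference of -0.15, a ratio of 0.903. There both Wrn Δhel/Δhel tumours lay below both Eµ-Myc tumours for 4 of the 28 (14.3%), namely Sirpa, Axl, Mertk and Slc40a1, against 12% of all tested genes. Markers of other cell types also had unlike genotype differences in the letters, and their part in the members' values was not tested. The median difference in the L and the E tumours was -0.91 and 0.20 for T cell markers, -1.10 and -0.02 for NK cell markers, -1.95 and 0.49 for erythroid markers and -1.92 and 0.75 for the 1 platelet marker. It was -0.37 and 0.43 for fibroblast and stroma markers, -0.12 and 0.14 for endothelial markers, 0.13 and -0.79 for granulocyte markers, 0.12 and -0.42 for dendritic cell markers, -0.02 and -0.66 for adipocyte markers and 0.40 and 0.26 for B cell markers. Of the T cell markers, Cd3d had 7.80 in Eµ-Myc tumour 2, an L tumour, and no more than 5.84 elsewhere. Of the NK cell markers, Nkg7 had 8.27 in that tumour and no more than 5.15 elsewhere. Others of these lists stood out less there. The T cell marker Il7r had 7.93, and up to 7.26 elsewhere, and the NK cell marker Prf1 had 8.82, and up to 8.39 elsewhere.

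**Figure D4:**
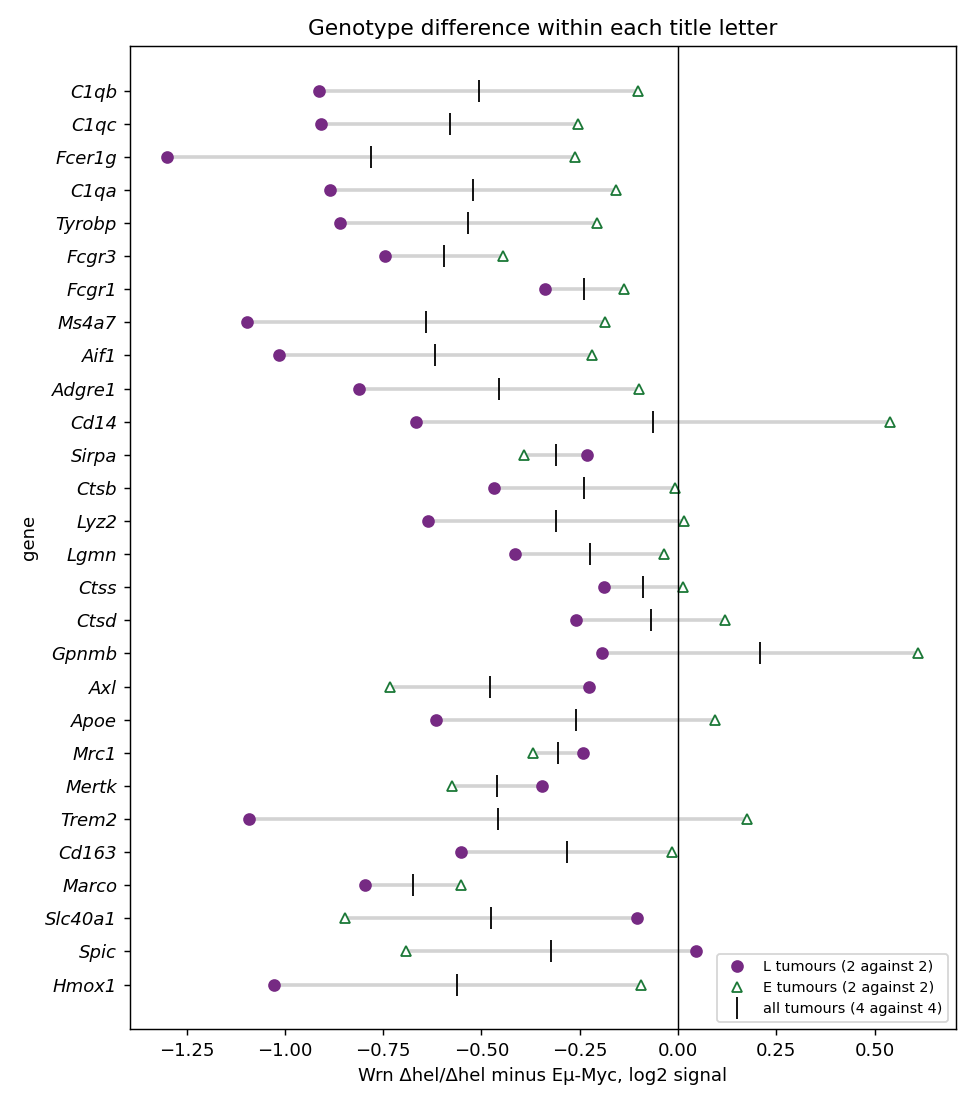
Log2 difference of each tested member, Wrn Δhel/Δhel minus Eµ-Myc (horizontal axis), in the L tumours and in the E tumours, with 2 tumours of each genotype per letter; members run down the page by role, the black mark is the difference over all 8 tumours, and the points carry no error bar. In the L tumours 27 of 28 members lie below 0, and in the E tumours 21 do, with Sirpa, Mrc1, Axl, Mertk, Slc40a1 and Spic lower than in the L tumours.

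The difference between these differences, L minus E, equals tumours 1 and 3 against 2 and 4 of each genotype. It was tested as an interaction. It was negative for 22 of 28 members (78.6%), against 50.3% of all tested genes, with a median of -0.59, but no member and none of the 11024 probes passed the test (lowest limma adjusted p of 0.937; 554 probes at an unadjusted p under 0.05). Without Wrn Δhel/Δhel tumour 2 the median was -0.37. By the reported probes Fcer1g had the lowest unadjusted p of the members, 0.0301, with an interaction of -1.04 ± 0.40: its genotype difference was -1.30 in the L tumours and -0.26 in the E tumours. Hmox1 came next, with -0.93 ± 0.40 and an unadjusted limma p of 0.0448, and genotype differences of -1.03 in the L tumours and -0.09 in the E tumours. The 2 of 28 members (7.14%) with a negative interaction at an unadjusted p under 0.05 compare with 2.91% of all tested genes, and the 0 with a positive one with 2.15%. The second tested probe of Lyz2 had an interaction of -1.49 ± 0.48, against -0.65 ± 0.54 for its reported probe. That second probe had an unadjusted limma p of 0.0134 and an adjusted p of 0.937. Of the other second probes, Aif1 had -0.98 ± 0.62, Adgre1 -0.08 ± 0.49, Gpnmb -0.004 ± 0.99 and Spic 0.34 ± 0.51. Their reported probes had -0.80, -0.71, -0.80 and 0.74, in the same order. The interaction was above 0 for Sirpa, Mrc1, Axl, Mertk, Slc40a1 and Spic.

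Between the letters themselves, with genotype in the model, 19 of 28 members had the lower mean in L tumours (67.9%), against 50.7% of all tested genes, with a median difference, L minus E, of -0.15; without Wrn Δhel/Δhel tumour 2 the count was 13 and the median 0.027. Of all 11024 probes 2 passed the test (0.0181%), with 820 at an unadjusted p under 0.05, and no member was among those that passed. The median letter difference was -1.38 for granulocyte markers, -1.02 for fibroblast and stroma markers, -0.42 for endothelial markers, -0.33 for the platelet marker, -0.25 for dendritic cell markers and -0.05 for B cell markers. It was 0.85 for erythroid, 0.46 for T cell, 0.43 for NK cell and 0.10 for adipocyte markers, and the part of these markers in the members' letter differences was not tested. Cd3d of the T cell and Nkg7 of the NK cell markers were far higher in Eµ-Myc tumour 2, an L tumour, than elsewhere. Il7r and Prf1, of the same lists, stood out less there. In the Wrn Δhel/Δhel tumours alone 25 members were lower in L (median -0.35), and in the Eµ-Myc tumours alone 11 were (median 0.20), against 49.6% and 49.9% of all tested genes. Apoe had 8.92, 9.05, 9.69 and 9.50 in the L tumours, against 10.30, 9.88, 10.32 and 9.67 in the E tumours, with the Wrn Δhel/Δhel pair named first for each letter. The letter difference of Apoe was -0.76 ± 0.23 (SE), with an unadjusted limma p of 0.0081 and an adjusted p of 0.524. Hmox1 differed by -0.61 ± 0.24 (adjusted p of 0.629). These were the 2 of 28 members (7.14%) lower in L tumours at an unadjusted p under 0.05, against 5.23% of all tested genes; none was higher in L tumours, against 2.39%, and none had every L tumour below every E tumour, against 3.2%.

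Other genes of phagocytes that are not on the list were grouped by role, and none of them passed the test. Of 20 tested other phagocyte receptors 17 had the lower mean in Wrn Δhel/Δhel tumours, against 48.9% of all tested genes, with a median difference of -0.36. Clec4a1, a C-type lectin, differed by -0.72 ± 0.27, Sirpb1a, a signal-regulatory protein, by -0.59 ± 0.23, and Tlr2, a receptor for bacterial lipoproteins, by -0.53 ± 0.25. Of 10 growth factors and chemokines of macrophages 9 were lower, with a median of -0.31. Ccl6 differed by -0.79 ± 0.28, Cxcl16 by -0.36 ± 0.24 and Ccl8 by -1.86 ± 0.82, the last with 10.19 in Eµ-Myc tumour 2 and no value above 7.13 in the other 7.

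Of 11 other iron and heme genes 7 were lower, with a median of -0.26. Slc11a1 (Nramp1, the metal transporter of the phagosome) had 8.14, 9.06, 8.57 and 8.41 in Wrn Δhel/Δhel tumours 1 to 4, against 9.03, 9.22, 9.45 and 9.16 in Eµ-Myc tumours 1 to 4. Its difference was -0.67 ± 0.22, with an unadjusted limma p of 0.0105, and here too Wrn Δhel/Δhel tumour 2 alone met the Eµ-Myc range. Slc48a1, a transporter of heme out of the lysosome, differed by -0.53 ± 0.27, and Blvra, which reduces biliverdin, by -0.27 ± 0.18.

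The remaining lists hold genes that many other cells also use. Of 23 other lysosomal genes 16 were lower in Wrn Δhel/Δhel tumours, with a median of -0.10; Scarb2, a lysosomal membrane protein, differed by -0.53 ± 0.22, Asah1, acid ceramidase, by -0.43 ± 0.21, and Ctsk, cathepsin K, by 0.54 ± 0.29. Of 8 transcription factors of phagocytes 4 were lower and 4 higher, with a median of -0.05; Irf8, which B cells also use, differed by 0.58 ± 0.28, Bach1, a heme-sensing repressor, by 0.38 ± 0.21 and Cebpb by -0.35 ± 0.26. Spi1, which encodes PU.1, differed by -0.11 ± 0.23. Of 3 other NADPH oxidase genes 1 was lower, with a median of 0.27. Cyba differed by -0.19 ± 0.20, Ncf4 by 0.45 ± 0.26 and Rac2 by 0.27 ± 0.26.

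The tumours also differed in markers of other cell types, none of which passed the test, and their part in the results was not tested. All 9 tested B cell markers had the higher mean in Wrn Δhel/Δhel tumours, with a median difference of 0.36, and their summed deposited intensity was 17660 to 26700 in Wrn Δhel/Δhel tumours, against 13620 to 22450 in Eµ-Myc tumours. Btk and Blk, kinases of B cell receptor signalling, differed by 0.56 ± 0.21 and 1.39 ± 0.57, and Ms4a1 (CD20) by 0.69 ± 0.41. The summed intensity of the 28 members was 12987 to 23460 in Wrn Δhel/Δhel tumours, against 20764 to 23564 in Eµ-Myc tumours. Without the brightest members, Ctsb, Lyz2, C1qb and Lgmn, it was 6184 to 11098 in Wrn Δhel/Δhel tumours, against 9134 to 10762 in Eµ-Myc tumours. Wrn Δhel/Δhel tumour 2 then had the highest sum. No Pax5 probe was detected on any array. This does not show that the gene is silent, as some probes of detected genes, such as Lyz2 and Aif1, were not detected either.

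Of 4 tested T cell markers 3 were lower in Wrn Δhel/Δhel tumours (median -0.43), with sums of 136.6 to 217.6 in Wrn Δhel/Δhel tumours, against 50.3 to 923.1 in Eµ-Myc tumours; Cd3d had 7.80 in Eµ-Myc tumour 2 and no more than 5.84 elsewhere, and Cd4, Cd8a and Trat1 were detected on no array. Both tested NK cell markers were lower, with sums of 164.1 to 333.2 in Wrn Δhel/Δhel tumours, against 242.1 to 728 in Eµ-Myc tumours, and 5 of the 8 on the list, among them Ncr1, were detected on no array. Of 8 granulocyte markers 7 were lower (median -0.25), with sums of 141.9 to 774.3 in Wrn Δhel/Δhel tumours, against 121.6 to 2791 in Eµ-Myc tumours, where S100a8 reached 10.73 in tumour 3. All 3 erythroid markers were lower (median -0.77), with sums of 1470 to 16080 in Wrn Δhel/Δhel tumours, against 5250 to 25870 in Eµ-Myc tumours, the highest Hba-a1 value being 14.62 in Eµ-Myc tumour 2.

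Dendritic cell markers were largely at background, with 7 of 10, among them Xcr1, Clec9a and Flt3, detected on no array; of the 2 tested, Bst2 differed by -0.56 ± 0.25 and Ccr7 by 0.26 ± 0.36, and the sums were 99.1 to 154.9 in Wrn Δhel/Δhel tumours, against 114.5 to 237.8 in Eµ-Myc tumours. Endothelial markers were lower for 6 of 10 (median -0.02), with sums of 1530 to 3153 in Wrn Δhel/Δhel tumours, against 1793 to 2758 in Eµ-Myc tumours. Markers of fibroblasts and stroma were lower for 4 of 8 (median -0.01), with sums of 1847 to 6978 in Wrn Δhel/Δhel tumours, against 2470 to 3951 in Eµ-Myc tumours. All 5 adipocyte markers tested were lower (median -0.49), of which macrophages also use Lpl and Pparg, with sums of 553.5 to 1096 in Wrn Δhel/Δhel tumours, against 653.9 to 1782 in Eµ-Myc tumours. Pf4, the 1 platelet marker tested, which macrophages also express, differed by -0.59 ± 0.48. It is also counted above among the growth factors and chemokines of macrophages.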

How the data were processed

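RNA of 8 mouse lymphomas was hybridised to Illumina bead arrays, 1 array a tumour; the 16 sample records are 2 processings of each tumour, counted once. Per the file headers, the non-normalized table holds linear intensity and a detection p-value per probe. The deposited table named lumi was read as linear intensity as well, from its values, with 26.3% to 26.4% of its values below 0. The deposited Illumina GUI table was treated as a score on an unstated scale: its square root lay within 0.0102 of log2 of the lumi values above 1000. The non-normalized table names its probes differently, so its 25697 rows were joined to the annotated rows by their ranks over the arrays; the lumi and GUI values gave the same partner for all 25697, and ranks from only 4 arrays gave the same partner for 99.99%. Probe symbols came from the platform annotation, updated by gene number through RefSeq: 23978 probes had 1 symbol and 1719 none. Members were found by the symbols of the deposited lumi rows, and their levels were taken from the joined non-normalized values.

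Those values were background corrected, quantile normalized and put on the log2 scale with neqc (offset 16) of limma 3.58.1 in R 4.3.3. Differences were fitted with lmFit and eBayes over all tested probes with Benjamini-Hochberg adjustment, called at an adjusted p under 0.05, for genotype, for title letter with genotype as a term, and for their interaction; all tests were two-sided. The interaction contrast equals tumours 1 and 3 against 2 and 4 of each genotype. A gene is given by its tested probe with the highest mean. The steps were tested on simulated data. Named with every tumour were members with an unadjusted p under 0.05 or among the 12 highest mean signals. A few were added after their values were seen (Adgre1, Cd14, Trem2, Hmox1, Spic and, from another list, Slc11a1). The others are given by difference and SE, and of each other list up to 3 genes with the lowest p. Spi1 was added to these. The members and lists were chosen with earlier results of these data known. Replicate numbers were not taken as pairs: deviations of same-numbered tumours correlated at -0.214 to -0.00374, and no tumour of 8 correlated best with its own number. Alternatives were other scalings, offsets, filters, weights and covariates, the deposited values, each letter alone, and leaving out each tumour. Protein sequences were not used here. The precision is limited by 4 tumours a group.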

Additional observations from a re-analysis of the deposited data

Results flagged for a closer look

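The values of the 28 tested members in the 4 tumours of each genotype were checked for a single tumour far from the rest, by the gap to its nearest neighbour over the whole range against Dixon's critical value; of the 56 groups checked 2 passed, and chance gives about 1 in 20. C1qc stood at 10.46 in Wrn Δhel/Δhel tumour 2, and the other Wrn Δhel/Δhel tumours lay between 9.90 and 9.93. Cd14 stood at 5.64 in Eµ-Myc tumour 1, and the other Eµ-Myc tumours lay between 6.23 and 6.29.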

How the results depend on the processing

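No member passed the genotype, letter or interaction test under any alternative run, and the lowest adjusted p of a member for genotype was 0.563. Filters, covariates and the block cannot move a single member's genotype difference in this balanced design; of the 453 differences under settings that can, 440 had the direction reported and 13 did not. In the E tumours alone 6 members turned to a higher mean in Wrn Δhel/Δhel tumours, by 0.014 (Lyz2), 0.094 (Apoe), 0.18 (Trem2), 0.54 (Cd14), 0.013 (Ctss) and 0.12 (Ctsd). In the L tumours alone Gpnmb turned to -0.19 and Spic to 0.045. Leaving out single tumours gave -0.12 to 0.52 for Gpnmb, -0.38 to 0.16 for Cd14 and -0.25 to 0.053 for Ctss. The cause was not tested. The members' median genotype difference was -0.15 in the E tumours alone, -0.30 with array weights, -0.56 to -0.33 without single tumours and -0.31 with no filter, where 29 of 34 members were lower. With the replicate number as a block 2 of the 11024 probes passed for genotype; the members' count of 27 and median of -0.46 are fixed under it by the design. Probes passing for genotype, 4 in the fit reported, were 1 with no filter, with detection on all 8 arrays and in the E tumours alone, 2 with array weights, and 1 to 6 without single tumours. Probes passing for letter were 0 with the lumi values, with an offset of 50 and in Eµ-Myc tumours alone, and 0 to 8 without single tumours. Members lower in L tumours were 11 in Eµ-Myc tumours alone and 13 to 24 without single tumours, and the median letter difference was -0.35 in Wrn Δhel/Δhel and 0.20 in Eµ-Myc tumours alone, and -0.24 to 0.027 without single tumours. For the interaction 1 probe passed with the lumi values and 0 to 2 without single tumours, and the members' median was -0.76 to -0.37 without single tumours. Signals near background limit Fcgr1, Marco, Ctsd and Cd163.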
